A study of Saccharomyces cerevisiae with 16 samples.

Results

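Wild type budding yeast of strain W303-1A was compared with and without 10 min of alkali, and the 4 arrays of this group, out of 16 in the series, are described here. They were chosen by their labels alone, as the arrays on which wild type RNA from KOH was set against wild type RNA from KCl after 10 min. Cells had been grown at 28 °C in rich YPD medium to an absorbance of 0.6 at 660 nm. The treated culture then received 20 mM KOH, which brought the medium to pH 8 per the series' design text, and the control culture 20 mM KCl. Every value is the ratio of these paired cultures, so potassium was added on both sides. The remaining 12 arrays hold wild type at 30 min and, at 10 and 30 min, strain MCY5278, which is W303-1A with msn2::kanMX4 and msn4::hphMX4. The mutant at 10 min and wild type at 30 min serve below for comparison. Each has 4 arrays, and both received the same doses of KOH and KCl. The design text gives 2 biological replicates per condition with swapped dyes, and no label says which arrays carry the same extract.

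Alkalinization dissipates the proton gradient across the plasma membrane, which yeast uses to take up phosphate, metals, amino acids and potassium. It also lets calcium into the cytosol, where calmodulin and the phosphatase calcineurin send the transcription factor Crz1 into the nucleus. Protein kinase A (PKA), active in glucose, holds the transcription factors Msn2 and Msn4 in the cytosol, and when its activity falls they bind the stress response element (STRE) of genes for stored carbohydrate, chaperones and antioxidant enzymes. Ribosomal protein and ribosome assembly genes are transcribed most in fast growth and are generally reduced in stress.

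The values are log ratios, read as log2 and as KOH over KCl. Both readings are likely but not stated in the labels. Arrays with opposite dyes correlate positively, so they were turned the same way, and PHO89, a gene known for induction by alkali, is among the most positive. RNA was primed with oligo(dT). KOH RNA carried Cy3 on arrays 1 and 4 and Cy5 on arrays 2 and 3, and array 4 came from a second series of slides, as the array titles number them. Of 6174 features, 3181, 2358, 2875 and 5025 had a value on arrays 1 to 4, and 972 had none. Array pairs correlated across genes between 0.707 (arrays 1 and 4) and 0.793 (arrays 3 and 4), with 0.750 for arrays 1 and 2, 0.745 for arrays 2 and 3, 0.725 for arrays 2 and 4 and 0.713 for arrays 1 and 3. Genes are not independent, and these correlations are a description. Among pairs of opposite dye, 1 with 2 and 3 with 4 were thus the most alike, and a fit in which each of these pairs was averaged into 1 replicate is given below as the pair-averaged fit, which leaves 2 values per group. A ratio cannot show the level of a gene in either culture. The markers of cell identity that could be read were few: of 7 MATa markers, 1 was tested, STE2 at -0.30 ± 0.27 (adjusted p = 0.407), and of 8 markers of sporulating diploids 2 were tested, with SPS4 at -0.47 ± 0.16 (adjusted p = 0.0251). Since these are ratios within a strain, they do not check the labelled cell type.

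After 10 min of KOH, RNA of most tested calcium-signalling targets, trehalose and glycogen enzymes and vacuolar proteases was higher. So was RNA of several, but not all, tested genes for carbon sources other than glucose. RNA of the cytosolic ribosome and its assembly factors was lower. A gene was tested where at least 3 of the 4 arrays gave a value, which held for 2670 features, 1953 of them on all 4. In the limma fit, 1097 of these passed a two-sided test at a Benjamini-Hochberg adjusted p below 0.05 (41.1%), 563 higher in KOH (21.1%) and 534 lower (20.0%). The sizes were unequal: 229 genes rose by at least 1 log2 unit, that is 2-fold (8.58% of those tested), and 111 fell by as much (4.16%). At 4-fold the counts were 74 and 5. Over all tested genes the estimate had a median of -0.04, quartiles of -0.34 and 0.36 and a median standard error of 0.16. Values after ± are the model's standard errors, from 4 arrays where no n is given.

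Arrays that share an extract are not independent, and p-values over arrays are then too small. In the pair-averaged fit, 484 of 1953 testable genes passed, 264 higher and 220 lower, and all 484 were among the 1097. Without array 4, the only array of this group from the second slide series, 682 of 1974 genes passed, and with the larger series alone for all groups 642. Centring each array on the genes measured on all 16 arrays moved the median of all tested genes from -0.04 to 0.07 and the split of calls from 563 higher and 534 lower to 687 higher and 407 lower, so small estimates near 0 have no settled sign. Among the genes named here, 133 passed over arrays, 112 of them could be tested in the pair-averaged fit, and 99 passed there. The 13 that did not were CLN3, CMK1, CNA1, CTR1, CTT1, HXK2, MCK1, PGM1, PMA1, PTR2, SPS4, TPI1 and YGK3. Gene lists below are described by how many tested members passed, and each can be read against 21.1% higher and 20.0% lower for all tested genes, whose median was -0.04.

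The largest rise among genes measured on all 4 arrays was that of BOP2, a gene of unknown function, with values of 4.01, 3.93, 5.19 and 5.24 on arrays 1 to 4 and an estimate of 4.59 ± 0.22 (adjusted p = 2.34e-10). PHO89, the sodium-coupled phosphate transporter of the plasma membrane, stood at 4.37, 3.34, 5.08 and 4.39, which gives 4.29 ± 0.20, or 19.6-fold (adjusted p = 2.34e-10). PUN1, a plasma membrane protein that acts in cell wall integrity, stood at 4.34, 3.88, 4.51 and 3.65. In all 3 genes every array lay far above 0, by more than the arrays differed from each other. YOR385W, whose product has no assigned role, and RGI1, which acts in energy metabolism under respiratory conditions, rose by 4.22 ± 0.18 and 3.92 ± 0.23. NCE103 is the carbonic anhydrase that turns carbon dioxide into bicarbonate, and its 4 values of 3.70, 3.67, 4.16 and 3.50 were close together. The 20 largest rises of this kind had estimates from 3.22 to 4.59 and adjusted p of 6.19e-04 or less, and all 20 also passed in the pair-averaged fit.

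The largest falls were smaller than the largest rises. TRM8, a subunit of a tRNA methyltransferase, had the lowest estimate, -2.37 ± 0.68 (adjusted p = 0.0154), but it rested on array 2, with values of -0.88, -6.53, -0.87 and -1.19. NHP2, a protein of the box H/ACA particles that guide pseudouridylation of rRNA, stood at -1.63, -1.81, -2.44 and -2.68 and fell by 2.14 on the log2 scale (SE 0.20, adjusted p = 6.48e-07). HPT1, the purine salvage enzyme, stood at -1.59, -1.44, -2.91 and -2.39, lower on arrays 3 and 4 than on arrays 1 and 2. EBP2 and RLP24, both needed to build the large ribosomal subunit, stood at -2.05 ± 0.20 and -1.77 ± 0.22. EXG1, a cell wall glucanase, and MCD1, a cohesin subunit, were the members of this group furthest from ribosome synthesis, at -1.37 ± 0.12 and -1.34 ± 0.18. All 20 largest falls on 4 arrays passed in the pair-averaged fit, with estimates from -2.37 to -1.32.

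**Figure D1:**
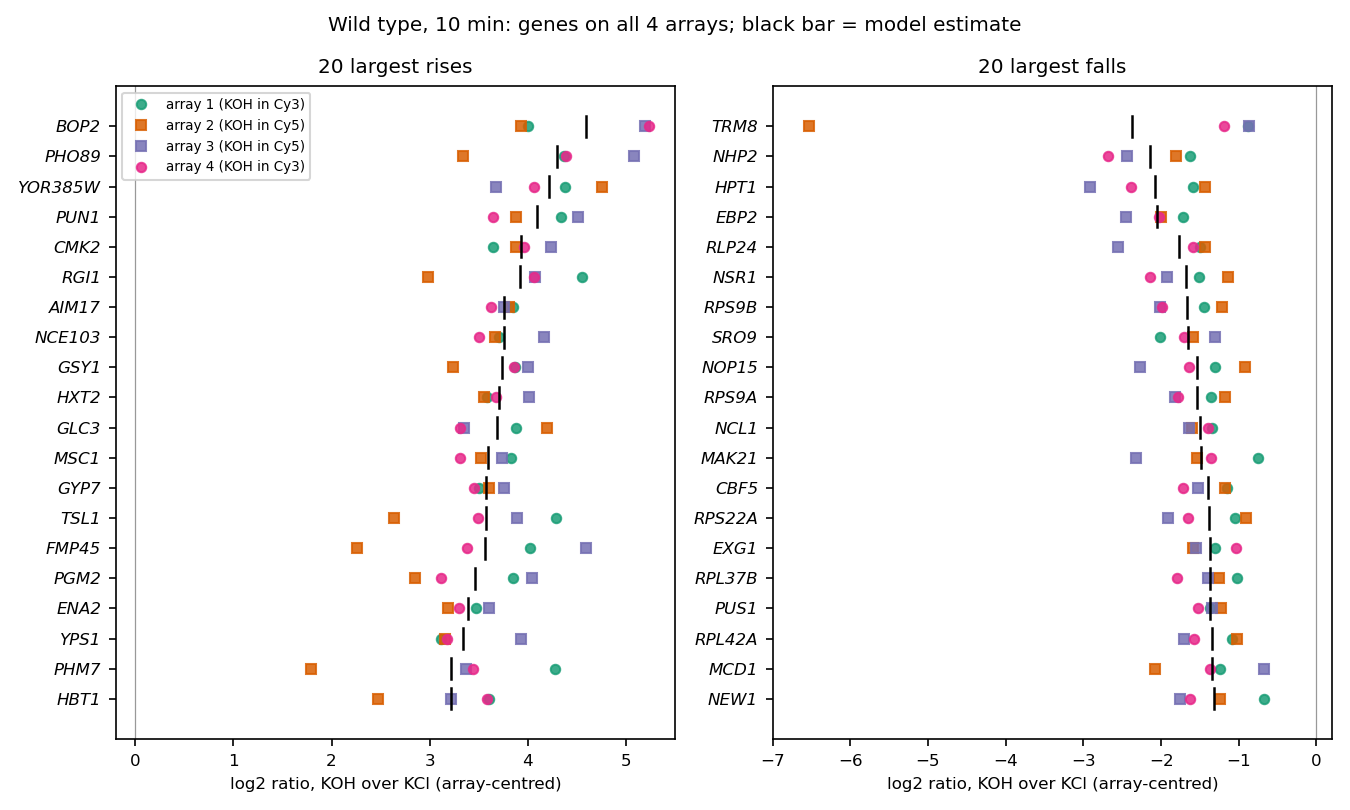
Log2 ratios of KOH over KCl on each of the 4 arrays, with the median of each array set to 0, for the 20 genes with the largest rises (left) and the 20 with the largest falls (right) among genes that passed with values of 1 sign on all 4 arrays. Points are arrays, with circles where KOH RNA carried Cy3 and squares where it carried Cy5, and black bars are the model estimates, from 3.22 to 4.59 on the left. TRM8 stands out on the right, where array 2 lies at -6.53 and the other 3 arrays from -1.19 to -0.87.

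Of the calcineurin/Crz1 target list, 13 of 15 genes were tested and all 13 rose, with a median of 2.98. All 12 members that could be tested in the pair-averaged fit passed there. The list was chosen with earlier results of these data known, so its count is a description and not a test. PHO89 and PUN1, given above, led the list. CMK2, a calmodulin-dependent protein kinase, stood at 3.65, 3.88, 4.24 and 3.97 on arrays 1 to 4, a rise of 3.93 ± 0.20 or 15.3-fold (adjusted p = 5.97e-10). All 4 arrays lay within a narrow band well above 0. Then came GYP7, which switches off the vacuolar Rab protein Ypt7, at 3.58 ± 0.11, RCN2, a regulator of calcineurin, at 3.08 ± 0.24 (n = 3), and NCW2, a cell wall protein, at 3.01 ± 0.21.

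Within the calcineurin and calmodulin machinery itself, 5 of 8 tested genes rose and 1 fell, with a median of 1.01, and 3 of 7 passed as higher in the pair-averaged fit. CMK2, RCN1 and RCN2 of this list, and PMC1 and PMR1 below, are also on the Crz1 target list. These lists are thus not independent. The 2 catalytic subunits of calcineurin went opposite ways. CMP2 stood at 0.93, 0.74, 1.12 and 1.28 and rose by 1.02 ± 0.13 (adjusted p = 1.79e-05), while CNA1 stood at -0.17, -0.35, -0.14 and -0.87 and its estimate was -0.38 ± 0.14 (adjusted p = 0.0413). The fall of CNA1 was small and did not pass in the pair-averaged fit, where its adjusted p was 0.225. RCN1, the other calcineurin regulator, rose by 1.63 ± 0.20, and CMK1, the paralog of CMK2, by 1.00 ± 0.31. Of the channels, pumps and exchangers that move calcium, 4 of 5 rose and none fell, with a median of 0.77. PMC1, the calcium pump of the vacuole, led with values of 2.34, 1.78, 2.56 and 2.36 and an estimate of 2.26 ± 0.13 (adjusted p = 4.83e-09). PMR1, the calcium and manganese pump of the Golgi, rose by 1.11 ± 0.16, and YVC1, the vacuolar calcium channel, by 0.77 ± 0.13.

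Most genes of stored carbohydrates rose. In the trehalose and UDP-glucose list, 7 of 7 tested members rose, with a median of 2.49, and 6 of 7 passed in the pair-averaged fit. TSL1, a regulatory subunit of trehalose synthase, stood at 4.29, 2.64, 3.89 and 3.49, lowest on array 2, and rose by 3.58 ± 0.21 (adjusted p = 3.64e-07). PGM2, the major phosphoglucomutase, stood at 3.85, 2.85, 4.04 and 3.12 and rose by 3.46 ± 0.21 (adjusted p = 7.00e-09). TPS2, which removes the phosphate from trehalose-6-phosphate, rose by 2.64 ± 0.20, and TPS1, which makes that intermediate, by 2.49 ± 0.14. UGP1, which makes UDP-glucose for both trehalose and glycogen, rose by 2.30 ± 0.21.

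For glycogen, 7 of 9 tested genes rose, with a median of 1.58. GSY1, a glycogen synthase, stood at 3.87, 3.24, 4.00 and 3.86 and rose by 3.74 ± 0.25 (adjusted p = 1.66e-07). GLC3, the branching enzyme, stood at 3.88, 4.20, 3.35 and 3.31 and rose by 3.68 ± 0.22 (adjusted p = 1.91e-08). Both were far above 0 on all 4 arrays. GDB1, which removes branches when glycogen is used, rose as well, by 2.49 ± 0.17, as did GIP2, a regulatory subunit of the protein phosphatase Glc7, by 2.11 ± 0.30 (n = 3), and GLG1, the primer of new glycogen, by 1.58 ± 0.27 (n = 3). Enzymes of synthesis and of breakdown thus moved in the same direction.

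The wider list of Msn2/Msn4 (STRE) targets contains several of these genes, so it is not independent of them. Of 28 tested members 26 rose, with a median of 2.02, and 22 of 25 passed in the pair-averaged fit. MSC1, named for a part in meiotic recombination, stood at 3.83, 3.52, 3.74 and 3.31, and HSP26, a small heat shock protein, at 4.60, 2.79 and 2.81. Their estimates were 3.60 ± 0.14 and 3.37 ± 0.31 (n = 3). CTT1, cytosolic catalase, had values of 0.23, 0.39, 1.17 and 0.24 and an estimate of 0.51 ± 0.15 (adjusted p = 0.0111, or 0.107 in the pair-averaged fit). MSN2 and MSN4 themselves stood at -0.09 ± 0.14 (adjusted p = 0.667) and 0.05 ± 0.11 (adjusted p = 0.776). Of the small heat shock and disaggregase genes 4 of 5 rose, with HSP104, which pulls proteins out of aggregates, at 2.16 ± 0.19. These 4 genes are also on the STRE list, so the counts are not independent. In the list of Hsp70, Hsp90 and their partners 4 of 18 rose and 2 fell, with a median of -0.01, and the largest change was that of SSB2, the ribosome-bound Hsp70, at -0.65 ± 0.14. 0 of 17 passed as higher and 1 as lower in the pair-averaged fit. Among oxidative stress proteins 8 of 25 rose and 1 fell, led by the glutaredoxin GRX6 at 1.37 ± 0.19 (n = 3) and the mitochondrial peroxiredoxin PRX1 at 1.15 ± 0.16, but only 3 of 21 passed as higher in the pair-averaged fit.

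**Figure D2:**
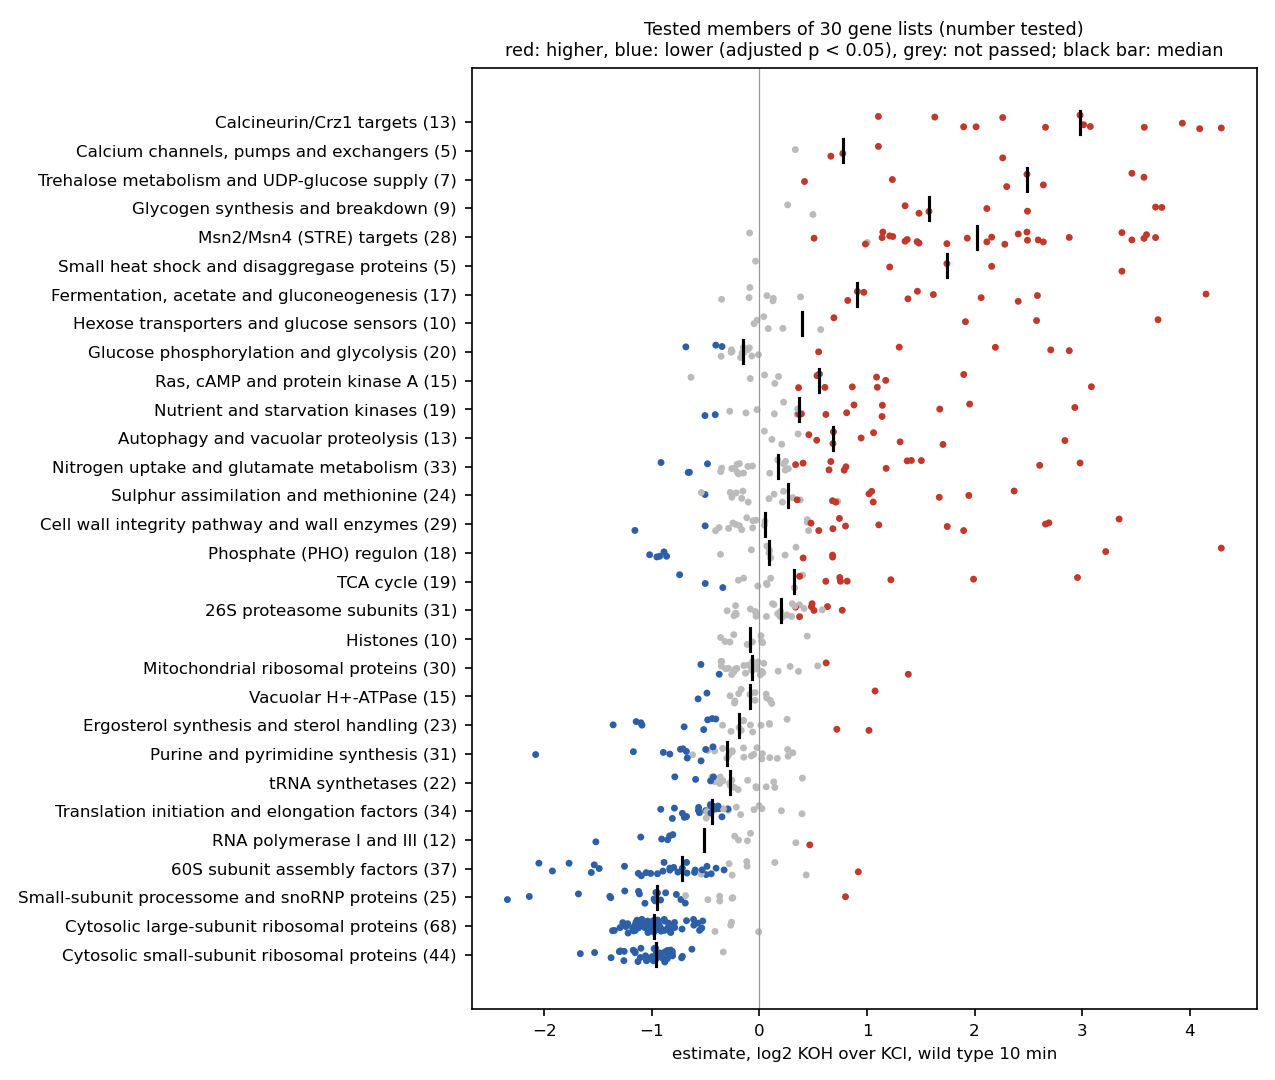
Model estimates of KOH over KCl in wild type at 10 min, on the log2 scale, for the tested members of 30 gene lists, with the number tested in parentheses. Each point is 1 gene, red where it passed as higher, blue where it passed as lower and grey where it did not pass, and black bars are list medians, from 2.98 for calcineurin/Crz1 targets to -0.98 for large-subunit ribosomal proteins.

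Sugar uptake and phosphorylation changed at specific steps. HXT2, a high-affinity glucose transporter, stood at 3.59, 3.55, 4.01 and 3.68 and rose by 3.71 ± 0.25 (adjusted p = 1.12e-08). HXT5, a transporter of slowly growing cells, rose by 2.58 ± 0.45 (n = 3) and HXT7, a high-affinity transporter, by 1.92 ± 0.18. Probes may not separate HXT7 from the near-identical HXT6, which stood at 0.57 ± 0.38 (adjusted p = 0.257). In all, 4 of 10 hexose transporters and sensors rose and none fell, with 2 of 8 passing in the pair-averaged fit. All 3 genes for glucose-phosphorylating enzymes measured here besides HXK2 rose by more than 4-fold: HXK1 by 2.88 ± 0.15, GLK1 by 2.71 ± 0.16 and EMI2 by 2.19 ± 0.17. HXK2, the hexokinase used in high glucose, rose by 0.55 ± 0.14 only. In the whole list of glucose phosphorylation and glycolysis, 5 of 20 members rose and 3 fell, with a median of -0.15. The genes that rose were these kinases and PYK2, a pyruvate kinase. 4 of 20 passed as higher and 0 as lower in the pair-averaged fit. TPI1, triose phosphate isomerase, had the largest fall, -0.68 ± 0.17.

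Genes for the use of other carbon sources were also among those that rose. In the list of fermentation, acetate use and gluconeogenesis, 10 of 17 tested genes rose and none fell, with a median of 0.91, and 7 of 12 passed in the pair-averaged fit. BDH2, a putative butanediol dehydrogenase, had values of 3.60, 4.54 and 4.21 on 3 arrays, and its estimate was 4.15 ± 0.26 (n = 3, adjusted p = 2.08e-07). Its neighbour and paralog BDH1 rose by 0.91 ± 0.16. ALD4, the mitochondrial aldehyde dehydrogenase, JEN1, the lactate permease, and ICL1, isocitrate lyase of the glyoxylate cycle, rose by 2.58 ± 0.23, 2.06 ± 0.27 and 1.62 ± 0.32 (n = 3). The rise of ICL1 rested on arrays 1 and 4, at 2.54 and 2.82, with 0.0 on array 3. The remaining 7 of 17 genes of this list did not pass. Of the TCA cycle list 8 of 19 rose and 3 fell, with CIT2, the peroxisomal citrate synthase, at 2.73, 2.49, 3.36 and 3.24 on the 4 arrays and an estimate of 2.96 ± 0.14 (adjusted p = 2.34e-10). The anaplerotic enzyme PYC1 followed at 1.99 ± 0.16. For the respiratory chain 4 of 16 rose, led by NDI1, the internal NADH dehydrogenase, at 1.18 ± 0.14, with a median of 0.12 that stood near the median of all genes. Of the pentose phosphate and glycerol genes 6 rose and 5 fell out of 15, with SOL4 at 1.93 ± 0.42 (n = 3) and GPP1, a glycerol-3-phosphatase, at -0.99 ± 0.22. The pair-averaged fit passed 6 of 17 TCA cycle genes, 2 of 15 respiratory chain genes and 2 of 12 pentose phosphate and glycerol genes as higher, and 0, 0 and 2 as lower.

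Several genes of the Ras, cAMP and PKA pathway itself rose, 10 of 15 tested, and none fell. The median was 0.56, and 4 of 11 passed in the pair-averaged fit. GPA2, the G protein alpha subunit that acts with the glucose receptor Gpr1, stood at 2.67, 3.88, 2.98 and 2.82 and rose by 3.09 ± 0.15 (adjusted p = 3.68e-10). Of the catalytic subunits of PKA, TPK2 rose by 1.09 ± 0.11, while TPK3 stood at -0.64 ± 0.27 (n = 3, adjusted p = 0.0865). CYR1, adenylate cyclase, and PDE1, the low-affinity phosphodiesterase that degrades cAMP, rose by 1.17 ± 0.15 (n = 3) and 1.10 ± 0.20, so enzymes that make and that remove cAMP both had more RNA. Among nutrient and starvation kinases and their regulators, 10 of 19 rose and 2 fell, against 5 and 0 of 12 in the pair-averaged fit. YAK1, a kinase that opposes PKA in growth control, stood at 2.80, 2.98, 3.14 and 2.81 and rose by 2.93 ± 0.13 (adjusted p = 1.08e-10), a tight group of 4 values. MRK1, a kinase of the GSK-3 family, rose by 1.95 ± 0.17 and GIS1, a transcription factor of the diauxic shift, by 1.68 ± 0.21.

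Ion transport genes changed one by one rather than as a group. Of 8 tested genes of sodium, potassium and proton transport 3 rose and 2 fell, against 2 and 0 of 6 in the pair-averaged fit. ENA2, a sodium pump of the plasma membrane, stood at 3.47, 3.19, 3.60 and 3.30 and rose by 3.39 ± 0.15, or 10.5-fold (adjusted p = 1.80e-10). Its probe may not be separate from the near-identical ENA1, which had a value on 1 array only, 3.25, and was not tested. HAL5, a kinase that stabilises potassium transporters, and KHA1, a potassium/proton antiporter, rose by 3.01 ± 0.23 and 2.29 ± 0.27 (n = 3). Genes central to potassium uptake and proton export went the other way. TRK1, the potassium transporter, stood at -0.61, -0.79 and -0.73 and PMA1, the proton pump of the plasma membrane, at -0.82, -0.80, -0.51 and -0.84, with estimates of -0.75 ± 0.20 (n = 3, adjusted p = 0.0112) and -0.74 ± 0.21 (adjusted p = 0.00916). Few genes of the vacuolar proton pump passed, with 1 of 15 genes higher and 2 lower and a median of -0.09. The one that rose was STV1, the a subunit of the Golgi and endosome form, at 1.08 ± 0.14 (adjusted p = 1.88e-05), while VPH1, the a subunit of the vacuolar form, stood at 0.10 ± 0.11 (adjusted p = 0.523).

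Genes on the phosphate list split. PHO89, which is also on the Crz1 target list, and PHM7, a membrane protein of unknown function, rose. PHM7 had values of 4.28, 1.79, 3.37 and 3.44 and an estimate of 3.22 ± 0.50. PHO84, the high-affinity proton-coupled phosphate transporter, stood at -1.08, -1.13, -0.20 and -1.14, below 0 on every array, and its estimate was -0.89 ± 0.18 (adjusted p = 8.46e-04). The acid phosphatase genes PHO3, PHO12 and PHO11 stood at -1.02 ± 0.21, -0.95 ± 0.19 and -0.93 ± 0.19, with the last pair too alike for separate probes to be assumed. Altogether 5 of 18 tested members rose and 5 fell, against 3 and 5 of 17 in the pair-averaged fit. Iron genes gave 3 rises and 1 fall out of 12, with ISU1, the scaffold for iron-sulphur clusters, at 1.40 ± 0.21 and FIT1, a cell wall siderophore-binding protein, at 1.02 ± 0.34. 2 of 8 passed as higher and 0 as lower in the pair-averaged fit. For copper and zinc 3 of 6 fell and none rose, among them CTR1, the copper transporter, at -0.48 ± 0.12, but 0 of 6 passed as lower in the pair-averaged fit. Only 4 of 13 genes of the Rim101 alkaline pH pathway could be tested, and 1 rose, RIM20, a scaffold for Rim101 cleavage, at 0.82 ± 0.14 (adjusted p = 2.08e-04).

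In nitrogen metabolism, 12 of 33 tested genes rose and 4 fell. MEP1, an ammonium permease that is also on the Crz1 list, stood at 3.12, 2.93, 3.13 and 2.75 and rose by 2.98 ± 0.11 (adjusted p = 2.40e-11), and GAD1, glutamate decarboxylase, rose by 2.61 ± 0.17. Amino acid permeases followed, with BAP2 for branched-chain amino acids at 1.51 ± 0.17 and PUT4 for proline at 1.41 ± 0.13. Of the sulphur and methionine list 9 of 24 rose and 1 fell. STR3, a lyase that converts cystathionine on the way to methionine, had values of 1.55, 2.34 and 3.27 on 3 arrays and rose by 2.37 ± 0.29 (n = 3), and MMP1 and SUL1, permeases for S-methylmethionine and sulphate, rose by 1.95 ± 0.20 and 1.67 ± 0.31 (n = 3). Amino acid synthesis gave 11 rises and 5 falls out of 45, a rise share close to that of all genes. Its largest rises were the arginine genes CAR2, for arginine breakdown, at 1.15 ± 0.21, and ARG3, for its synthesis, at 1.14 ± 0.15. Of the vitamin and carbonic anhydrase list 4 of 7 rose, NCE103 first and SNZ1, for vitamin B6, at 2.72 ± 0.21. The pair-averaged fit passed 8 of 30 nitrogen genes, 5 of 20 sulphur genes, 7 of 40 amino acid synthesis genes and 2 of 6 vitamin genes as higher, and 1, 0, 1 and 0 as lower.

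Vacuolar proteases rose together, with 9 of 13 tested autophagy and vacuolar genes higher, none lower and a median of 0.68. PRB1, vacuolar protease B, stood at 2.74, 2.62, 3.53 and 2.47 and rose by 2.84 ± 0.18 (adjusted p = 7.00e-09). CPS1, carboxypeptidase S, and APE1, aminopeptidase 1, rose by 1.71 ± 0.20 (n = 3) and 1.31 ± 0.18. For proteasome subunits, 7 of 31 were higher, a share close to the 21.1% of all tested genes. Their median was 0.20, with RPN2 as the largest at 0.77 ± 0.16. Of the cell wall list 11 of 29 rose and 2 fell. YPS1, a yapsin protease of the cell surface, stood at 3.12, 3.16, 3.93 and 3.17 and rose by 3.34 ± 0.13 (adjusted p = 4.88e-11). CHS1, a chitin synthase, and GSC2, the stress form of glucan synthase, rose by 2.66 ± 0.16 and 1.90 ± 0.23. In lipid synthesis 6 of 30 rose and 2 fell, with a median of 0.02, and the rise share was close to that of all tested genes. Its largest rises were SUR1 and ORM2, both of sphingolipid synthesis and its control, at 2.01 ± 0.16 and 1.70 ± 0.16. CHS1, GSC2 and SUR1 are also on the Crz1 target list. Of the ergosterol genes 9 of 23 were lower and 2 higher, but only 2 of 18 passed as lower and 0 as higher in the pair-averaged fit. The lowest was ERG5, a sterol desaturase, at -1.07, -1.55 and -1.35 on 3 arrays and -1.36 ± 0.14 (n = 3) in the fit (adjusted p = 2.04e-06). For the other lists of this kind, the pair-averaged fit called higher 4 of 8 autophagy and vacuolar genes, 2 of 31 proteasome genes, 6 of 22 cell wall genes and 4 of 21 lipid synthesis genes. It called lower 1 of 22 cell wall genes and 1 of 21 lipid synthesis genes.

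Nearly all tested genes of the cytosolic ribosome fell. Of the small-subunit ribosomal protein genes 43 of 44 fell, with a median of -0.96, and of the large-subunit genes 64 of 68 fell, with a median of -0.98. None rose in either list, and 40 of 42 and 57 of 67 passed in the pair-averaged fit. RPS9B stood at -1.44, -1.21, -2.02 and -1.99 and its pair RPS9A at -1.36, -1.18, -1.82 and -1.78, with estimates of -1.67 ± 0.15 and -1.53 ± 0.21, and probes may not separate them. RPS22A followed at -1.38 ± 0.18. In the large subunit the largest falls were those of RPL37B at -1.37 ± 0.17 and RPL42A at -1.35 ± 0.15. The fall differed in size between arrays: the median of the 67 large-subunit genes on all 4 arrays was -0.81, -0.72, -1.08 and -1.29 on arrays 1 to 4. Over the 1953 genes on all 4 arrays the medians were -0.02, 0.02, 0.02 and -0.20, lowest on array 4, from the second slide series. Without array 4, 62 of 68 large-subunit genes passed as lower, and 61 of 68 with the larger slide series alone.

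Most tested factors that assemble ribosomes fell as well. In the list of the small-subunit processome and snoRNP proteins 18 of 25 tested members fell, with a median of -0.95. ENP1, needed for early and late steps of 40S assembly, had values of -2.16, -2.88 and -1.72 on 3 arrays and an estimate of -2.34 ± 0.20 (n = 3, adjusted p = 5.16e-06), followed by NHP2 at -2.14 ± 0.20 and NSR1, the yeast nucleolin, at -1.68 ± 0.19. One member rose, NOP1, the fibrillarin methyltransferase, at 0.80 ± 0.16 (adjusted p = 0.00102). Of the 60S assembly factors 29 of 37 fell, with a median of -0.72, led by EBP2, by CIC1, which also acts in 60S assembly, at -1.93 ± 0.36 (n = 3) and by RLP24, and NSA1 rose. NSA1 stood at 0.99, 0.96, -0.16 and 1.89, far apart on arrays 3 and 4, with an estimate of 0.92 ± 0.20 (adjusted p = 0.00192). In the pair-averaged fit 10 of 17 of the first list and 11 of 24 of the second passed as lower. Their medians on arrays 1 to 4 were -0.61, -0.78, -1.07 and -1.06 for the first, and -0.43, -0.52, -1.05 and -0.87 for the second, smaller on arrays 1 and 2 than on arrays 3 and 4.

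**Figure D3:**
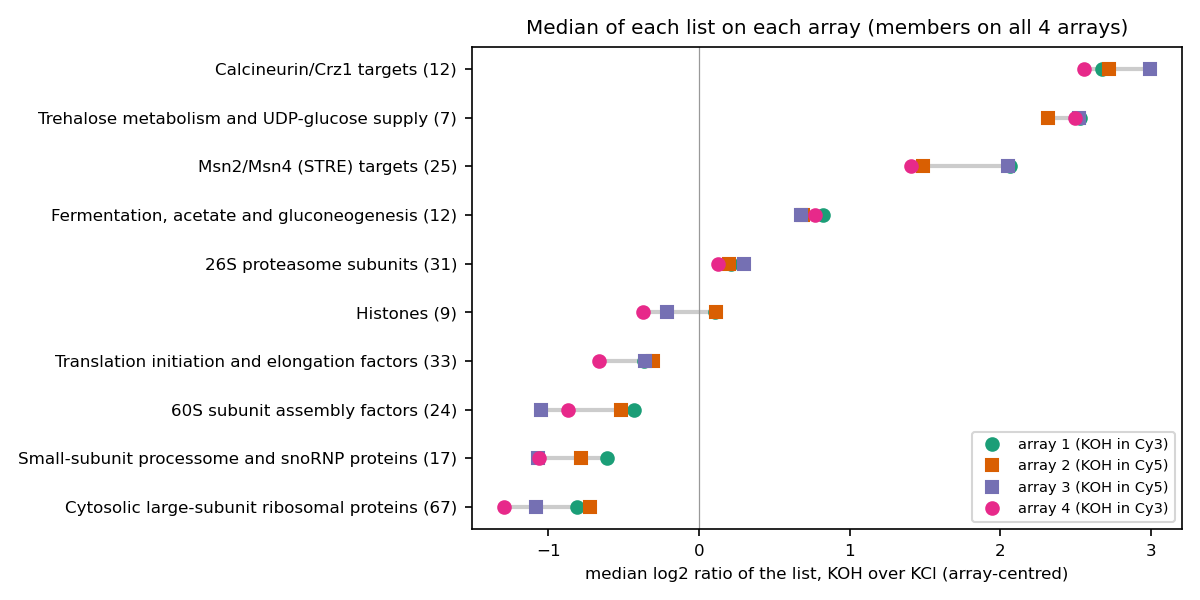
Median log2 ratio of KOH over KCl on each of the 4 arrays for 10 gene lists, over the members with values on all 4 arrays (number in parentheses). Circles are arrays with KOH RNA in Cy3 and squares arrays with KOH RNA in Cy5, and grey bars span the 4 arrays. The median of 60S assembly factors ran from -1.05 on array 3 to -0.43 on array 1, while that of trehalose genes was lowest on array 2, at 2.31.

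Many genes for RNA polymerases I and III, RNA modification enzymes and translation factors fell as well. Of the genes for RNA polymerases I and III 6 of 12 fell and 1 rose, with RPA34 of polymerase I at -1.52 ± 0.20 (n = 3) and RPB5, shared by all the polymerases, at -1.10 ± 0.16. Among rRNA and tRNA modification enzymes 8 of 14 fell and none rose, with NCL1, a tRNA cytosine methyltransferase, at -1.50 ± 0.15 and PUS1, a pseudouridine synthase, at -1.36 ± 0.12. Translation factors fell in 21 of 34 cases and rose in none, with a median of -0.45 and elongation factor 3, YEF3, lowest at -0.92 ± 0.18. Only 3 of 33 passed in the pair-averaged fit, where 220 of 1953 of all testable genes passed as lower. For tRNA synthetases, 4 of 22 genes were lower, 1 of 21 in the pair-averaged fit, with a median of -0.27. The first share is close to the 20.0% lower among all tested genes. Of the nucleotide synthesis and salvage genes 11 of 31 fell and none rose, after HPT1 most of all FCY2, the purine-cytosine permease, at -1.17 ± 0.16. In the pair-averaged fit 5 of 9 polymerase genes, 4 of 8 modification genes and 7 of 28 nucleotide genes passed as lower. For mitochondrial ribosomal proteins, 2 rose and 2 fell of 30, with a median of -0.07. The difference between these lists was not tested.

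Among cell cycle genes 5 of 13 tested G1/S and S phase genes fell and 1 rose. MCD1 was lowest, and CLN2, a G1 cyclin, stood at -0.77 ± 0.12, while CLN3, the upstream G1 cyclin, rose by 0.54 ± 0.13. Of the G2/M and early G1 list 4 of 11 fell, with ALK1, a haspin-like kinase, at -0.88 ± 0.15 (n = 3). In the pair-averaged fit 2 of 10 genes of the first list and 0 of 9 of the second passed as lower. No histone gene of 10 passed the limma test, 1 had an unadjusted p below 0.05, and the largest estimate was that of HTB2 at 0.44 ± 0.32 (adjusted p = 0.287). No histone gene passed in the pair-averaged fit either.

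Paralogous genes often differed in size within the same cells, and in 2 pairs the calls over arrays had opposite directions. Of 54 listed pairs 27 had both members tested. In 9 both rose, in 9 one rose and the other did not pass, in 2 both fell, in 2 the members went opposite ways, in 1 only a fall passed and in 4 neither passed. The widest gap was that of BDH1 and BDH2, given above. PGM2 rose by 3.46 and its paralog PGM1 by 0.42 ± 0.12. CIT2 rose by 2.96 and the mitochondrial form CIT1 by 1.22 ± 0.19, and GSY1 by 3.74 against 1.48 ± 0.22 for GSY2. Pyruvate kinase PYK2 rose by 1.30 ± 0.17, while the main form CDC19 stood at -0.26 ± 0.13 (adjusted p = 0.141). FKS1, the glucan synthase of normal growth, stood at -0.06 ± 0.14 (adjusted p = 0.780) beside GSC2 at 1.90. Besides calcineurin, the GSK-3 family kinases MCK1 and YGK3 went opposite ways, at 0.39 ± 0.12 and -0.41 ± 0.12. Neither passed in the pair-averaged fit, nor did CNA1, and all of them lost the call without array 4. The gap within a pair was not tested, and probes that also bind the other member would narrow it.

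**Figure D4:**
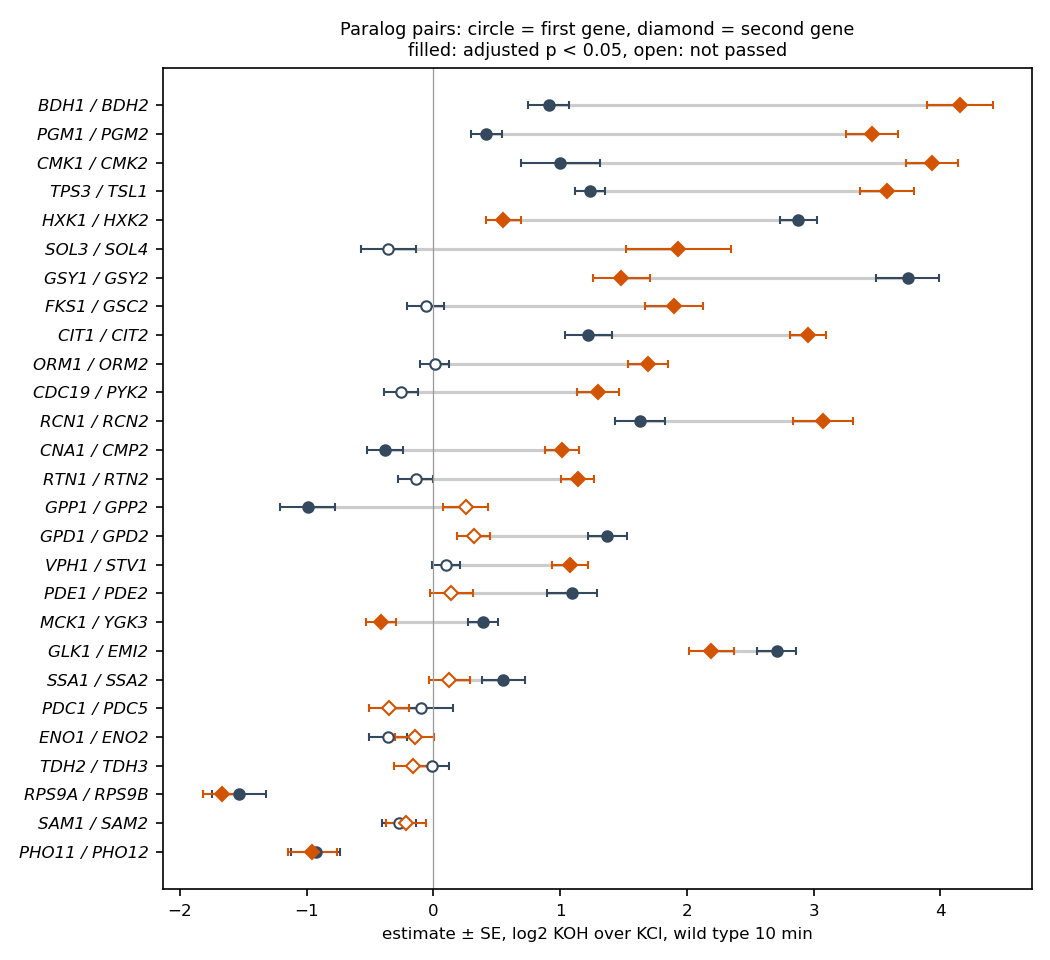
Model estimates with standard errors (bars) for the 27 paralog pairs in which both genes were tested, as log2 of KOH over KCl in wild type at 10 min. Circles are the first gene named and diamonds the second, filled where the adjusted p was below 0.05 and open where it was not, and pairs are sorted by the gap between their members, widest at the top. BDH1 and BDH2 stand at 0.91 and 4.15, and PHO11 and PHO12, at the bottom, at -0.93 and -0.95.

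Some of the genes that rose lie next to each other. Of 1154 pairs of adjacent genes with both members tested, 19 had both higher by at least 1 log2 unit, namely 5 of 291 divergent, 11 of 580 tandem and 3 of 283 convergent pairs. Of single tested genes 8.58% rose by as much, and whether neighbours rose together more often than other genes was not tested. The 19 pairs include HBT1 and FMP45, a polarity protein and a membrane protein of the cell cortex, at 3.22 ± 0.49 and 3.56 ± 0.46, and YPS1 with the related YPS3 at 1.75 ± 0.16 (n = 3). Also adjacent were CMK1 and GSY1, and SRY1 with JEN1, SRY1 being a dehydratase of hydroxyaspartate, at 2.09 ± 0.14. Another 5 pairs had both lower and 4 had opposite changes of this size, such as NSR1 at -1.68 and RTS3, a putative phosphatase component, at 2.42 ± 0.29. Order came from the start positions of protein-coding genes in the reference annotation, and strand from the letter in the systematic name.

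A further 2532 features had values on only 1 or 2 of the 4 arrays and were not tested. Of these 58 had a mean of 2 or more and 20 a mean of -2 or less. HSP12, a membrane-associated stress protein and classic STRE target, stood at 4.00 and 3.27 on arrays 3 and 4. ROQ1, which redirects protein degradation in stress, stood at 3.99 and 4.02 on arrays 1 and 4. MGA1, a protein with a heat-shock-factor-like domain, stood at 16.37 on array 1 and 2.11 on array 4, and the first is the highest value of the whole table. RCH1, a plasma membrane protein that limits calcium uptake, stood at 5.99 and 2.65, and NOG2, a GTPase of 60S assembly, at -5.62 and -2.20. Where 2 arrays gave a value, these genes agreed in sign and, for ROQ1 and HSP12 but not for MGA1, RCH1 and NOG2, lay within 1 log2 unit.

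The mutant without Msn2 and Msn4 shows which of these changes differed when both factors were missing. Of 2361 genes with at least 3 arrays in both strains, 22 passed the limma test of mutant minus wild type at 10 min (0.932%), 2 higher (0.0847%) and 20 lower (0.847%), and 217 had an unadjusted p below 0.05. In the pair-averaged fit 0 of 1542 genes passed, with 32 at an unadjusted p below 0.05, and only 12 of the 22 could be tested there. Each comparison between groups below rests on 3 or 4 arrays per group and gene. Leaving out mutant array 2, 3 or 4 left 6, 7 and 7 calls. The MSN2 probe still gave ratios on the mutant arrays, -0.23, -0.35, -0.25 and -0.25, although the labels give the gene as deleted, and a ratio within a strain does not check the deletion. The difference also contains the wild type arrays, so its sign is not independent of the wild type values above.

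HXK1 stood at 3.29, 2.82, 2.97 and 2.45 on the wild type arrays and at 0.81, 0.82, 1.22 and 1.01 on the mutant arrays. The strains did not overlap, and the difference was -1.92 ± 0.21 (adjusted p = 1.59e-04, or 0.0757 in the pair-averaged fit). PGM2 stood at 3.85, 2.85, 4.04 and 3.12 in wild type and at 0.50, 1.08 and 0.71 on 3 mutant arrays, a difference of -2.75 ± 0.32 (adjusted p = 3.24e-04). MSC1 stood at 3.83, 3.52, 3.74 and 3.31 against 1.79, 1.16 and 1.31, also on 3 mutant arrays, a difference of -2.20 ± 0.22 (adjusted p = 1.59e-04). In these 3 genes every mutant array was above 0 and below every wild type array. They were named for their large differences, and the share of all tested genes without overlap was not counted. Differences of GLC3, TPS2 and STF2, a regulator of the mitochondrial ATP synthase, were -2.02 ± 0.34, -1.95 ± 0.29 and -1.87 ± 0.33 (adjusted p of 0.00997 or less). NSA1 differed by -1.75 ± 0.30 (adjusted p = 0.00997), with mutant arrays at -1.13, -1.12 and -0.52, all below 0, and wild type arrays above 0 except for array 3. The 2 genes higher in the mutant were VHT1, the biotin permease, at 1.10 ± 0.22 (adjusted p = 0.0185), and ARG3 at 0.92 ± 0.21 (adjusted p = 0.0454).

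Among STRE targets 13 of 18 testable members were lower in the mutant, 16 had an unadjusted p below 0.05, and the median of the same genes was 1.61 in wild type and 0.66 in the mutant. None of the 9 that could be tested passed in the pair-averaged fit. For calcineurin/Crz1 targets 0 of 13 passed in limma, 2 had an unadjusted p below 0.05, and 0 of 11 passed in the pair-averaged fit. Their medians were 2.98 in wild type and 3.31 in the mutant. CMK2 stood at 3.65, 3.88, 4.24 and 3.97 in wild type and 4.92, 4.35, 4.93 and 4.18 in the mutant, with 1 mutant array inside the wild type range. For large-subunit ribosomal proteins 0 of 68 differed, with 1 at an unadjusted p below 0.05, and the medians were -0.98 and -0.88. These counts can be set against 0.932% of all genes, and a test that was not passed does not show that the strains responded alike.

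Comparison with 30 min shows which changes were early. Of 2607 genes tested in both wild type groups 472 passed for 30 min minus 10 min (18.1%), 156 higher at 30 min (5.98%) and 316 lower (12.1%). In the pair-averaged fit 55 of 1880 passed, 45 of them lower, and leaving out 1 array at a time gave 320 to 463. Both comparisons use the 10 min arrays, so high values at 10 min and low differences are not independent. BDH2 stood at 3.60, 4.54 and 4.21 at 10 min and at -0.09, 0.20 and -0.43 at 30 min, each on 3 arrays, a difference of -4.22 ± 0.36 (adjusted p = 1.74e-05). HXT2 stood at 3.59, 3.55, 4.01 and 3.68 and then at 0.86, 1.11, -0.15 and 0.20, a difference of -3.20 ± 0.35 (adjusted p = 1.74e-05). HXK1 stood at 3.29, 2.82, 2.97 and 2.45 and then at 0.03, 0.03, -0.12 and 0.07, close to 0 on all 4 arrays at 30 min, a difference of -2.88 ± 0.21 (adjusted p = 4.24e-07). None of these 3 genes overlapped between the times, but they were named for their large differences. The share of all 2607 genes without overlap was not counted.

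Other large early rises also were lower at 30 min, with GSY1 at -3.68 ± 0.39, YOR385W at -3.30 ± 0.26 and HAL5 at -2.89 ± 0.32. PTR2, a peptide transporter, differed by -2.82 ± 0.29, and here the 10 min values of -0.52, -0.76, -0.31 and -1.06 were already below 0 and the 30 min values of -2.98, -3.38, -3.99 and -3.59 were lower still. In the other direction SNZ1 stood at 3.21, 2.38, 2.56 and 2.73 at 10 min and at 5.05, 5.01, 4.38 and 4.34 at 30 min, a difference of 1.97 ± 0.29 (adjusted p = 3.10e-04). SER3, for serine synthesis, differed by 2.18 ± 0.25 (adjusted p = 3.24e-05). PHO84 was below 0 at 10 min and stood at 1.05, 0.87, 0.54 and 0.68 at 30 min, a difference of 1.67 ± 0.25 (adjusted p = 3.51e-04), and HPT1 differed by 1.92 ± 0.41 (adjusted p = 0.00495). For PHO84 and SNZ1, named for their large differences, the times did not overlap. The share of all tested genes without overlap was not counted, so this cannot be called unusual. PHO84 changed from lower to higher in KOH between 10 and 30 min.

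Whole lists can be set side by side for the same genes at both times. STRE targets had a median of 1.74 at 10 min and 0.39 at 30 min, with 19 of 23 lower at 30 min, and 8 of 20 passing in the pair-averaged fit. Calcineurin/Crz1 targets went from 2.98 to 1.38, with 10 of 13 lower and 7 of 12 passing in the pair-averaged fit. PHO89 was an exception, at 4.07 ± 0.20 at 30 min against 4.29 at 10 min, a difference of -0.22 ± 0.29 (adjusted p = 0.616). Large-subunit ribosomal proteins stood lower at 30 min, with medians of -0.98 and -1.47 and 21 of 68 passing, but 1 of 66 in the pair-averaged fit. The 60S assembly factors stood closer to 0 at 30 min, with medians of -0.72 and -0.40, where 1 of 37 passed as higher and 3 as lower. Amino acid synthesis genes, near 0 at 10 min with a median of -0.02, had a median of 0.52 at 30 min, with 12 of 43 higher, but 2 of 40 passing in the pair-averaged fit.

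**Figure D5:**
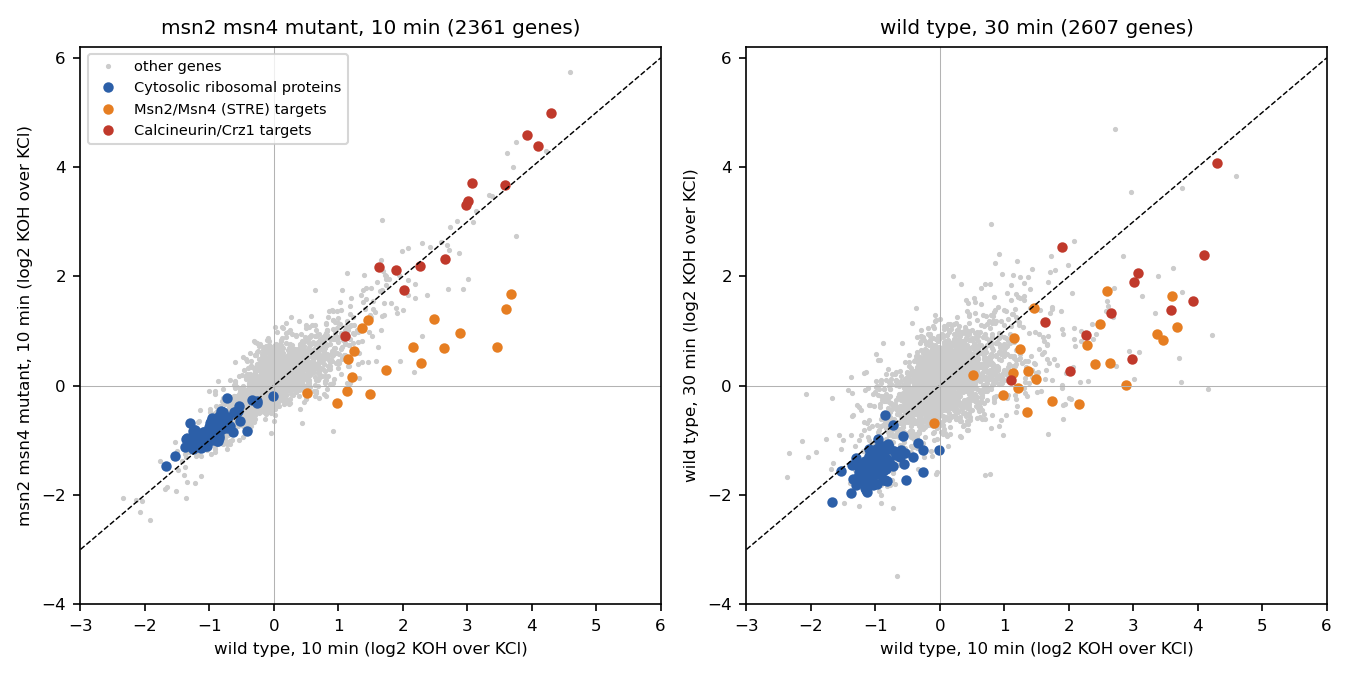
Model estimates of log2 KOH over KCl in wild type at 10 min (horizontal axes) against the msn2 msn4 mutant at 10 min (left, 2361 genes) and wild type at 30 min (right, 2607 genes). Each point is 1 gene, with cytosolic ribosomal proteins in blue, STRE targets in orange and calcineurin/Crz1 targets in red, and dashed lines mark equal values. STRE targets stand at medians of 1.61 against 0.66 on the left and 1.74 against 0.39 on the right.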

How the data were processed

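The authors deposited 1 log ratio per feature and array of 2 dyes. The deposited values were read as log2. Base 2 is likely, since the highest value, 16.268, is close to the limit of a 16-bit scanner on that scale, but no label states it. How the authors scanned, corrected and normalized the arrays, and why cells are empty, is not given in the sources used here. Features carry systematic names, of which 5675 of 6174 matched the reference table of assembly R64 and 5158 had a gene name there.

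Array medians were set to 0. A model with group coefficients and a dye term was fitted with limma 3.58.1 (R 4.3.3) over all 16 arrays. The wild type 10 min coefficient and its differences from the mutant at 10 min and from wild type at 30 min were tested two-sided, with Benjamini-Hochberg adjustment over all genes with at least 3 arrays in each group used. On simulated data for 2670 genes, 88% of changes of 1 log2 unit and 99% of 2 log2 units were called, with 12 false calls. The simulated noise was independent between arrays, with spreads taken from wild type at 30 min. Real arrays that share an extract are not independent, so these figures do not give the error rate of the real calls. The number of arrays limits precision.

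The members and gene lists were chosen with earlier results of these data known, so list counts are descriptions. Named genes are the 20 largest rises and falls, up to 6 members per list, paralog pairs, the 10 largest differences each way and a few fixed genes, with fewer printed. HXT6, NOP1, RTS3 and SRY1 are outside this rule and were chosen after their values were seen. A few named genes are not reported here. Alternatives covered the dye term, the arrays fitted, slide series, centring, normalization, missing values, moderation, weights, a minimum change, averaged dye pairs and each array left out. Promoter sequences were not used here, so the planned motif counts were not made.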

Additional observations from a re-analysis of the deposited data

Results flagged for a closer look

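Of 123 named genes with values on all 4 arrays of wild type at 10 min, 7 had 1 array far from the other 3, by Dixon's gap criterion, which chance meets in about 1 group in 20. TRM8 stood at -6.53 on array 2 and between -1.19 and -0.87 on the others. The other 6 stood apart on array 3, on which KOH RNA carried Cy5. ALD4 stood at 3.50 there and between 2.15 and 2.35 elsewhere, and YPS1 at 3.93 against 3.12 to 3.17. CTT1 stood at 1.17 against 0.23 to 0.39, and without array 3 its estimate was 0.36 instead of 0.51. PHO84 stood at -0.20 against -1.14 to -1.08, PMA1 at -0.51 against -0.84 to -0.80, and RLP24 at -2.55 against -1.59 to -1.44. Why array 3 stood apart was not tested.

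Differences between groups that passed the test of the difference itself over arrays are given here by their size on the log2 scale, for the genes named above. For mutant minus wild type at 10 min they were PGM2 at -2.75, MSC1 at -2.20, GLC3 at -2.02, TPS2 at -1.95, HXK1 at -1.92, STF2 at -1.87, NSA1 at -1.75, VHT1 at 1.10 and ARG3 at 0.92. For 30 min minus 10 min in wild type they were BDH2 at -4.22, GSY1 at -3.68, YOR385W at -3.30, HXT2 at -3.20, HAL5 at -2.89, HXK1 at -2.88, PTR2 at -2.82, SER3 at 2.18, SNZ1 at 1.97, HPT1 at 1.92 and PHO84 at 1.67.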

How the results depend on the processing

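For KOH against KCl in wild type at 10 min, 1097 calls became 642 with the larger slide series only, 340 with a minimum of 1 log2 unit, and 484 with arrays 1 and 2 and arrays 3 and 4 averaged. Leaving out each array gave 682 to 906, lowest without array 4, and the other alternatives stayed within 1.5 times. For mutant minus wild type, 22 calls became 11 with only the arrays of the groups compared, 1 with the larger series, 10 after quantile normalization, 11 with values on all 4 arrays, 34 with at least 2, and 0 with those dye pairs averaged. Leaving out an array gave 6 to 22, with 6, 7 and 7 without mutant arrays 2, 3 and 4. For 30 min minus 10 min, 472 calls became 303 with only the groups compared, 264 with the larger series, 737 with array weights (whose estimation stopped before convergence), 192 with a minimum of 1 log2 unit and 55 with those dye pairs averaged, and 320 to 463 with 1 array left out. Fewer samples or genes enter most of these fits. Quantile normalization turned the split of this comparison from 156 higher and 316 lower to 202 and 238, and the cause was not tested. Averaging arrays 1 with 3 and 2 with 4 gave 1070, 22 and 630 calls for the 3 comparisons. The counts thus depend on which arrays share an extract, which the labels do not say.

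Of 133 named genes that passed in wild type at 10 min, 10 lost the call without some array: CMK1 without array 3 or 4 (adjusted p = 0.152 and 0.135), CTT1 (0.100) and TPI1 (0.0519) without array 3, and CNA1, FIT1, MCK1, PGM1, PTR2, SPS4 and YGK3. No named gene changed sign in these 3 comparisons. Over 45 counts of list members, 159 of 855 values under other settings moved by more than 1.5 times, 34 of them with the minimum change, 30 with arrays 1 and 2 and arrays 3 and 4 averaged and 46 with 1 array left out. No paired analysis was possible because the labels carry no replicate numbers, and the arrays were numbered in order of deposit.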
